A study of Mus musculus with 6 samples.

Results

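The Hedgehog pathway genes described here are the ligand Shh, the receptor Ptch1, the transducer Smo, the co-receptors Boc and Cdon, the decoy receptor Hhip and the transcription factors Gli1, Gli2 and Gli3. They were chosen by symbol, each symbol was matched to a single Ensembl gene identifier, and the 9 genes stand among 39179 genes listed in the count files. RNA was measured in the sensory epithelium of the cochlea and of the vestibule, the hearing and balance parts of the inner ear, from wild-type newborn (P0) C57Bl/6J mice, with males and females pooled. Each tissue had 3 libraries made from 450 ng of total RNA, and RNA of at least 20 organs was pooled, so no library stands for a single animal. Both tissues came from the same 10 mice (20 ears), which leaves 1 pool of that size per tissue, and separate pools are not described. The p-values therefore measure only the spread between these libraries, which may be technical. The design compares the 2 tissues and holds no treated or mutant group.

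Hedgehog ligands are secreted proteins that carry lipids and bind Ptch1 on the receiving cell, together with the co-receptors Boc, Cdon and Gas1. Without ligand, Ptch1 holds Smo inactive and Gli3, with part of Gli2, is cut into a repressor. With ligand, Smo moves into the primary cilium and full-length Gli proteins switch on targets that include Gli1, Ptch1 and Hhip, of which Ptch1 and Hhip dampen the signal again. In the inner ear the pathway is known for patterning the ventral otocyst, from which the cochlea grows, and Shh from spiral ganglion neurons is known to hold back hair cell differentiation in the cochlear duct.

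Gli proteins bind a known DNA motif near target genes. The promoter windows of Hhip and Ptch1 are shown because both are textbook targets and, of the pair, only Hhip passed the test between the tissues. The windows are the 250 bases before the RefSeq start of each gene (GRCm38.p6), read 5′ to 3′ on the minus strand. Hhip is at chr8:80058009-80058258 and Ptch1 at chr13:63565736-63565985. The Ptch1 window lies within an intron of longer transcripts in GENCODE vM21, and the Hhip window lies outside the annotated gene. Capitals mark 9 bases that are as close to the Gli motif GACCACCCA, on either strand, as any in the window, and other stretches may tie with them.
Hhip: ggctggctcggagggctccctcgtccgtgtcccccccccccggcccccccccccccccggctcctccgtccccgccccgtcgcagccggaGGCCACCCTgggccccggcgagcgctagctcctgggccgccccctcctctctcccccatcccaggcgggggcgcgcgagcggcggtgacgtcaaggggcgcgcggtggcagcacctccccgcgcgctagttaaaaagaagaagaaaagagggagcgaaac
Ptch1: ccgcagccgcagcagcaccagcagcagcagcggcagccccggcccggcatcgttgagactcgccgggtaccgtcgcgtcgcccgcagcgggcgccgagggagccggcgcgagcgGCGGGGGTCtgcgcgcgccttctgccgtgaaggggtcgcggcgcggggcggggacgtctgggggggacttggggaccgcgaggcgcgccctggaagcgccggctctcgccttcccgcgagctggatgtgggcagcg
The marked stretch of Hhip differed from the motif at 2 positions, a closeness reached by 51.8% of 32851 promoter windows of this length. That of Ptch1 differed at 3 positions, and 98.6% of windows came as close. An exact match was found in 74 windows (0.225%) and in 0 of the 6 members with a window, which says only that these letters are not in these windows.

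Counts on genes summed to between 24464483 and 33664793 per library, and levels are given in CPM, the counts of a gene scaled to a library total of 1000000. At this depth 1 CPM stood for 24.5 to 33.7 counts. A gene was tested if 3 libraries or more held 1 CPM of it, which 14723 genes did. With p-values of edgeR's quasi-likelihood test adjusted by Benjamini-Hochberg, 1711 of them were higher in the cochlea (11.6%) and 2325 were higher in the vestibule (15.8%), with the threshold of 0.05 used throughout. Scaled by library size alone, 1249 and 2754 genes were higher in the cochlea and the vestibule. Hair cell markers (8 genes) and supporting cell markers (7 genes) all passed the filter. Summed markers of cartilage and mesenchyme were also abundant. The cartilage sum was mostly collagen genes such as Col2a1, with means of 11385 CPM in the cochlea and 10454 CPM in the vestibule. Among the other cartilage markers, Matn1 had a cochlear mean of 145 CPM. Acan, Hapln1, Comp, Snorc and Matn3 had cochlear means of only 0.163 (Matn3) to 2.85 CPM (Acan). Cochlea replicate 3 stood apart with 243.6 CPM of summed skeletal muscle markers against 4.0 to 20.9 CPM in the other 5 libraries.

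Of the 9 genes, 8 passed the filter, and Shh did not. Cdon and Hhip were higher in the vestibule, by 4.16-fold and 2.49-fold, and Gli3 was higher in the cochlea, by 2.37-fold. The count of 1 member higher in the cochlea with 2 higher in the vestibule stands beside the shares of 11.6% and 15.8% over all genes, and the median log2 fold change of the 8 (vestibule minus cochlea throughout) was -0.15 against 0.005 over all genes. The libraries of the tissues did not overlap for Gli3, with the cochlea above, and for Cdon, Hhip and Gli1, with the vestibule above. Over all genes tested, 14.3% had all cochlear libraries above and 27.5% all vestibular ones. Fold changes come from counts scaled by trimmed mean of M values (TMM), whereas the CPM values given for each library use library size alone. In such bulk samples, fewer cells of a type and less RNA per cell cannot be told apart.

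**Figure D1:**
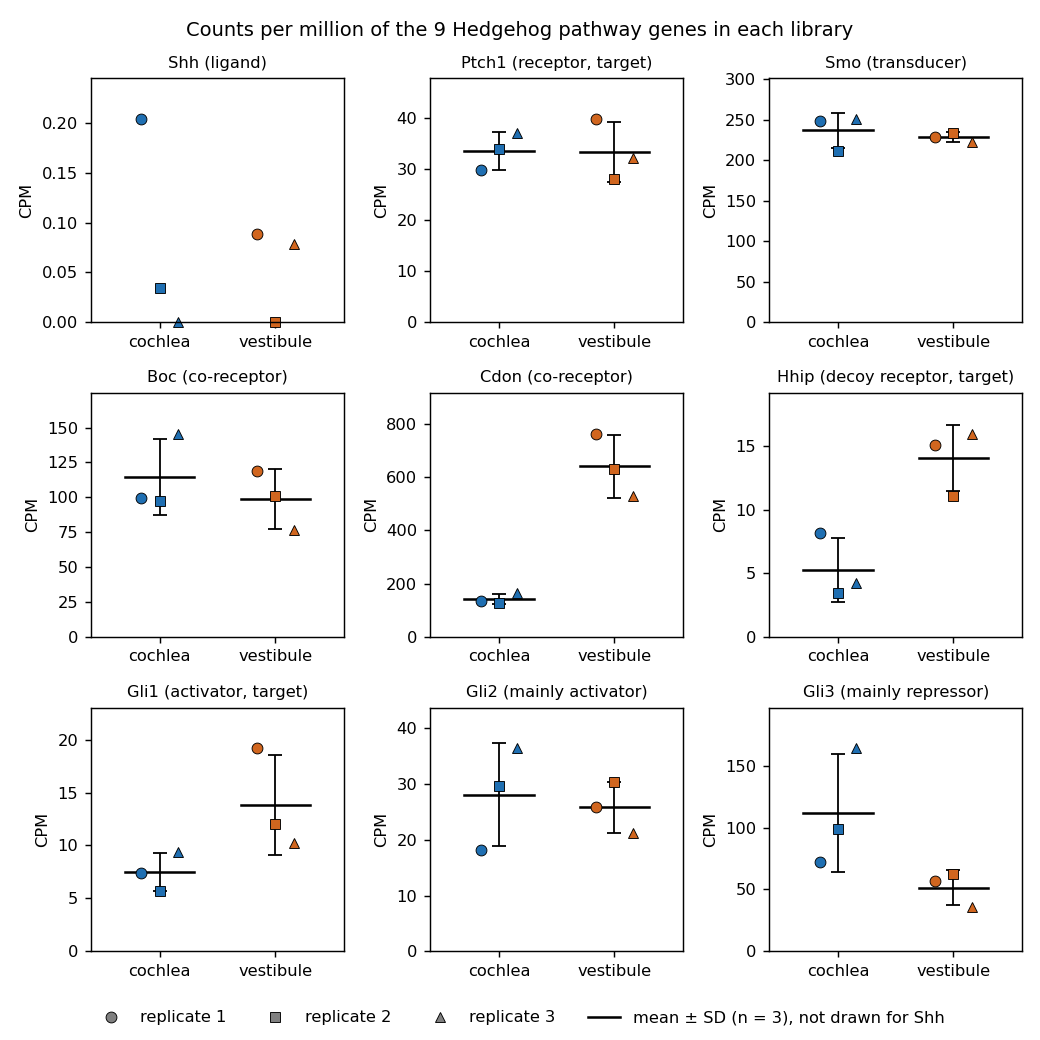
CPM of each of the 9 genes (vertical axes, each from 0) in the 3 cochlear (blue) and 3 vestibular (orange) libraries, with the symbol showing the replicate and bars the mean ± SD. All vestibular libraries lie above all cochlear ones for Cdon (528 to 764 against 126 to 163 CPM), Hhip and Gli1, and below them for Gli3.

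Of the ligands, Shh was at the edge of detection in both tissues. Shh (ENSMUSG00000002633, chr5:28456815-28467256, minus strand, GRCm38) had 5, 1 and 0 counts in cochlea replicates 1, 2 and 3 and 3, 0 and 2 counts in the vestibular ones. Neither tissue stood above the other, and 2 of the 6 libraries held no count, which allows up to 0.1027 CPM in cochlea replicate 3 and 0.1168 CPM in vestibule replicate 2 (3 counts). Summed over libraries, the 6 cochlear counts made 0.0727 CPM (exact Poisson 95% interval 0.0267 to 0.158) and the 5 vestibular counts 0.0589 CPM (0.0191 to 0.138). These intervals cover counting error only, and a difference was not detectable at this depth. Summed neuron markers, which include genes of the ganglion neurons known to make Shh, were at 293.6 to 621.6 CPM in the cochlea and 138.6 to 367.4 CPM in the vestibule.

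Ihh, the ligand of growth plate cartilage, was also below the filter, with 14 counts in all cochlear libraries (0.17 CPM, 0.0928 to 0.285) and 28 in all vestibular ones (0.33 CPM, 0.219 to 0.477). Dhh, the ligand made by Schwann cells in peripheral nerve, was the only one of the 3 ligand genes to be tested. It stood at 14.6, 5.24 and 4.21 CPM in the cochlea against 10.8, 8.57 and 12.1 CPM in the vestibule. The tissues overlapped because cochlea replicate 1 was the highest of the 6 libraries. The log2 fold change of Dhh was 0.28 ± 0.43 (SE) with an adjusted p of 0.661 by edgeR's quasi-likelihood test. Without cochlea replicate 1 the value was 1.01 and passed the threshold (adjusted p = 0.0302, edgeR), and without cochlea replicate 3 it was -0.04 (adjusted p = 0.947, edgeR), and these were the lowest and highest adjusted p of the 15 alternatives. Summed Schwann cell markers ranged from 514.7 to 693.2 CPM in the cochlea and from 1115 to 1502 CPM in the vestibule, and their part in the Dhh counts was not tested.

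Neither the receptor nor the transducer passed the test, and the 95% intervals of both stayed within 0.5 of 0 on the log2 scale. Ptch1 (ENSMUSG00000021466, chr13:63508328-63573598, minus strand), which binds the ligand, inhibits Smo and is itself a target, had 726, 974 and 1080 counts in the cochlea against 1337, 719 and 819 in the vestibule, or 29.7, 33.8 and 37.0 against 39.7, 28.0 and 32.1 CPM. The highest and the lowest library were both vestibular. Its log2 fold change was -0.13 ± 0.16 (SE, 95% interval -0.49 to 0.23, adjusted p = 0.583 by edgeR's quasi-likelihood test).

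Smo (ENSMUSG00000001761, chr6:29735503-29761365, plus strand), the membrane protein that carries the signal into the cell, had 6071, 6099 and 7335 counts in the cochlea against 7711, 6016 and 5670 in the vestibule. That made 248, 212 and 251 CPM against 229, 234 and 223 CPM, with the vestibular libraries inside the cochlear range. The log2 fold change of Smo was -0.17 ± 0.12 (SE, 95% interval -0.43 to 0.10, adjusted p = 0.323 by the same test), and no alternative setting brought it past the threshold.

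The co-receptors Cdon and Boc, related membrane proteins with immunoglobulin and fibronectin repeats that bind Hedgehog ligands, were measured at levels at which both could be tested, and Cdon alone passed. Cdon (ENSMUSG00000038119, chr9:35421128-35507652, plus strand) had 3318, 3625 and 4776 counts in the cochlea against 25728, 16217 and 13463 in the vestibule. In CPM it stood at 136, 126 and 163 against 764, 631 and 528, so the lowest vestibular library was far above the highest cochlear one. The means were 142 ± 19.5 and 641 ± 118 CPM (SD, n = 3). Its log2 fold change was 2.06 ± 0.16 (SE, 95% interval 1.69 to 2.42), and the adjusted p was 3.84e-05 by edgeR's quasi-likelihood test. Cdon kept its direction and its call under all 15 alternative settings, with log2 fold changes from 1.96 to 2.18.

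Boc (ENSMUSG00000022687, chr16:44485049-44558897, minus strand) had 2441, 2813 and 4257 counts in the cochlea against 4010, 2588 and 1950 in the vestibule. In CPM these were 99.8, 97.7 and 146 against 119, 101 and 76.5. The tissues overlapped, with the highest value in cochlea replicate 3 and the lowest in vestibule replicate 3. Boc had a log2 fold change of -0.33 ± 0.19 (SE, 95% interval -0.76 to 0.10, adjusted p = 0.228 by edgeR's quasi-likelihood test).

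Set against each other within a library, which needs no scaling between libraries, the RPKM (counts scaled by gene length and library total) of Cdon was 0.785, 0.744 and 0.648 times that of Boc in the cochlea and 3.71, 3.62 and 3.99 times in the vestibule. Boc was thus the more abundant of the pair per length in every cochlear library and Cdon in every vestibular one.

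Hhip (ENSMUSG00000064325, chr8:79965851-80058006, minus strand), a target that binds ligand on the cell surface without passing on a signal, had 199, 98 and 123 counts in the cochlea against 508, 285 and 407 in the vestibule. In CPM it stood at 8.13, 3.402 and 4.21 against 15.1, 11.1 and 16.0, with means of 5.25 ± 2.53 and 14.1 ± 2.60 CPM (SD, n = 3). Every vestibular library was above every cochlear one, and cochlea replicate 1 was nearest to the vestibule. Hhip had a log2 fold change of 1.32 ± 0.32 (SE, 95% interval 0.59 to 2.05, adjusted p = 0.0155 by edgeR's quasi-likelihood test). The call was lost without cochlea replicate 2, where the value was 1.10 (adjusted p = 0.0634, edgeR), and over all alternatives the adjusted p ran from 0.000354 to 0.0634.

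Of the 3 Gli genes, Gli3 passed the threshold, Gli1 was just short of it and Gli2 far from it. Gli3 (ENSMUSG00000021318, chr13:15463235-15730026, plus strand), the main repressor of the family when ligand is absent, had 1757, 2851 and 4797 counts in the cochlea against 1900, 1598 and 911 in the vestibule. In CPM it stood at 71.8, 98.98 and 164 against 56.4, 62.2 and 35.8, with means of 112 ± 47.4 and 51.5 ± 13.9 CPM (SD, n = 3). The cochlear libraries were all above the vestibular ones, but they spread widely, from cochlea replicate 1 just above the vestibule to cochlea replicate 3 far above it. This was a log2 fold change of -1.24 ± 0.30 (SE, 95% interval -1.92 to -0.56, adjusted p = 0.0146 by edgeR's quasi-likelihood test). Without cochlea replicate 3, the library with skeletal muscle markers, it was -0.88 and still past the threshold (adjusted p = 0.0233, edgeR). Over the 15 alternatives the adjusted p of Gli3 ran from 8.26e-05 to 0.0643. Its call was lost in 1 of them, the edgeR fit with the replicate number as a block (adjusted p = 0.0643). RNA counts do not tell the full-length from the cut form of the Gli3 protein.

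Gli1 (ENSMUSG00000025407, chr10:127329882-127341974, minus strand), an activator whose transcription is a common readout of the pathway, had 180, 165 and 274 counts in the cochlea against 646, 310 and 260 in the vestibule. In CPM it stood at 7.36, 5.73 and 9.38 against 19.2, 12.1 and 10.2, with means of 7.49 ± 1.83 and 13.8 ± 4.74 CPM (SD, n = 3). The tissues did not overlap, but vestibule replicate 3 was only slightly above cochlea replicate 3. The log2 fold change of Gli1 was 0.76 ± 0.26 (SE, 95% interval 0.18 to 1.34), and the adjusted p of 0.0572 by edgeR's quasi-likelihood test missed the threshold. Among the 15 alternatives it passed in 6, including DESeq2 (adjusted p = 0.0253) and leaving out cochlea replicate 3 (0.94, adjusted p = 0.0319) or vestibule replicate 3 (0.92, adjusted p = 0.0403), and the adjusted p ran up to 0.192. Exons of Gli1 overlap those of Arhgap9 on the opposite strand, which had at most 122 counts in a library, and the strand setting of the counting is not given in the sources used here.

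Gli2 (ENSMUSG00000048402, chr1:118834132-119053619, minus strand), the main activator of the family, had 444, 854 and 1065 counts in the cochlea against 874, 779 and 541 in the vestibule. In CPM these were 18.1, 29.6 and 36.4 against 26.0, 30.3 and 21.2, so the vestibule lay inside the cochlear range. Its log2 fold change was -0.25 ± 0.25 (SE, 95% interval -0.81 to 0.32, adjusted p = 0.499 by edgeR's quasi-likelihood test). Cochlea replicate 3 had the highest value of Gli2, Gli3 and Boc alike.

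The makeup of the Gli transcripts also differed when compared within each library. Gli3 made 61.7%, 63.7% and 68.5% of the summed RPKM of the 3 Gli genes in the cochlea against 39.5%, 45.7% and 38.8% in the vestibule. Gli1 made 16.6%, 9.66% and 10.2% in the cochlea against 35.1%, 23.2% and 29.0% in the vestibule. The tissues did not overlap for either share, while those of Gli2 did (21.2% to 26.6% and 25.4% to 32.2%). The ratio of Gli3 to Gli1 in RPKM was 3.73, 6.59 and 6.68 in the cochlea against 1.12, 1.97 and 1.34 in the vestibule. The ratio of Gli3 to Gli2 was 2.83, 2.39 and 3.23 against 1.56, 1.47 and 1.21. Both ratios separated the tissues, whereas that of Gli1 to Gli2 did not (0.363 to 0.760 and 0.746 to 1.39).

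The 3 textbook targets among the members were set against each other in the same way, where the size of a ratio rests on the gene lengths used and the difference between tissues does not. The ratio of Hhip to Ptch1 in RPKM was 0.241, 0.0887 and 0.1003 in the cochlea against 0.334, 0.349 and 0.437 in the vestibule, and that of Gli1 to Ptch1 was 0.292, 0.199 and 0.298 against 0.568, 0.507 and 0.373. Hhip and Gli1 were thus both higher relative to Ptch1 in every vestibular library than in any cochlear one. The ratio of Smo to Ptch1 overlapped, at 7.13 to 9.52 in the cochlea and 6.57 to 9.53 in the vestibule.

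**Figure D2:**
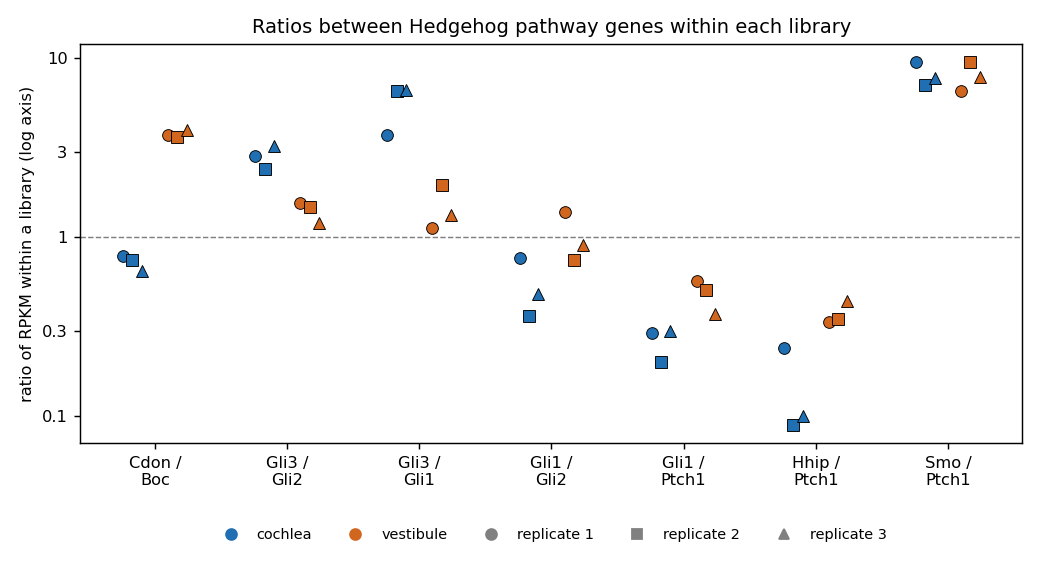
Ratio of the RPKM of 2 Hedgehog pathway genes within each library (vertical log axis, no unit), for 7 pairs of genes, with cochlear libraries in blue, vestibular ones in orange and symbols for the replicates. The tissues are apart for 5 pairs, with Cdon over Boc at 0.648 to 0.785 in the cochlea and 3.62 to 3.99 in the vestibule, and overlap for Gli1 over Gli2 and Smo over Ptch1.

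Levels per length, in the authors' log2 RPKM, put Smo first in the cochlea at 5.97 ± 0.14 (SD, n = 3), followed in log2 RPKM by Boc at 4.66 ± 0.32, Cdon at 4.19 ± 0.19, Gli3 at 3.46 ± 0.60, Ptch1 at 2.96 ± 0.16, Gli2 at 1.98 ± 0.52, Gli1 at 1.01 ± 0.36 and Hhip at 0.00 ± 0.65. Of the neighbours in this order, Cdon and Gli3, Gli3 and Ptch1, and Gli1 and Hhip had overlapping libraries. In the vestibule Cdon came first at a log2 RPKM of 6.36 ± 0.27 (SD, n = 3), above Smo at 5.92 ± 0.04, Boc at 4.45 ± 0.32, Ptch1 at 2.94 ± 0.25, Gli3 at 2.39 ± 0.43, Gli2 at 1.90 ± 0.26, Gli1 at 1.87 ± 0.47 and Hhip at 1.51 ± 0.28. Gli3, Gli2 and Gli1 overlapped there, as did Gli2, Gli1 and Hhip, and the lowest library of Ptch1 was barely above the highest of Gli3. Cdon thus stood in the third place in the cochlea and the first in the vestibule. The place of Ptch1 depends on the gene length used, which was 4296 bases behind the authors' values and 14185 bases for all its exons in GENCODE vM21. With GENCODE lengths its mean log2 RPKM would be 1.23 in the cochlea and 1.22 in the vestibule. That is below the means of Gli3 and Gli2 in both tissues (Gli2 at 1.97 and 1.90). In the vestibule it is also below the mean of Gli1 (1.42). With those lengths the log2 RPKM of Smo would be 5.39 in the cochlea and 5.35 in the vestibule, that of Gli1 0.55 in the cochlea, and that of Hhip -0.89 and 0.61.

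Beyond the members, 50 genes of the pathway in 6 groups were counted, of which 47 passed the filter. By edgeR's quasi-likelihood test, 5 of them were higher in the cochlea, 6 in the vestibule and 36 passed in neither direction, beside 11.6% and 15.8% of all genes. Their median log2 fold change was 0.045. The libraries of the tissues did not overlap for 6 with the cochlea above and 9 with the vestibule above, beside 14.3% and 27.5% of all genes.

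In the group for ligand lipidation and release, 1 of 6 genes was higher in each tissue, beside 11.6% of all genes in the cochlea and 15.8% in the vestibule. Scube2, a secreted protein that helps to free the lipid-bearing ligand from the cell, stood at 1.06, 1.56 and 1.57 CPM in the cochlea against 21.6, 14.4 and 9.77 CPM in the vestibule. Its log2 fold change of 3.30 ± 0.32 (SE, adjusted p = 0.000119 by edgeR's quasi-likelihood test) was the largest in size among the genes of the pathway higher in the vestibule. Disp2, a relative of the ligand transporter Disp1, was higher in the cochlea at -1.56 ± 0.42 (SE, adjusted p = 0.0251, edgeR). Its libraries were at 24.7, 26.5 and 11.4 CPM against 12.5, 4.36 and 6.40 CPM and overlapped. The call of Disp2 was lost without cochlea replicate 1, cochlea replicate 2, vestibule replicate 2 or vestibule replicate 3 (adjusted p 0.0681 to 0.106, edgeR, against 0.000256 to 0.106 over all alternatives).

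Among the other receptors and co-receptors, 4 of 6 were higher in the vestibule, beside 15.8% of all genes. By edgeR's quasi-likelihood test 0 were higher in the cochlea, as was the case at an unadjusted p under 0.05 and with DESeq2, limma-voom and edgeR's exact test. Gpc4, a cell surface glypican, stood at 63.0, 67.1 and 80.9 CPM in the cochlea against 130, 136 and 141 CPM in the vestibule (log2 fold change 0.83 ± 0.14 SE, adjusted p = 0.00234, edgeR). It passed under all 15 alternatives. Lrp2, the endocytic receptor megalin, which can take up Shh, stood at 132, 132 and 220 against 323, 278 and 231 CPM (0.66 ± 0.21, adjusted p = 0.0439, edgeR). Gas1, a co-receptor anchored to the membrane by a lipid, stood at 275, 274 and 258 against 387, 387 and 428 CPM (0.46 ± 0.13, adjusted p = 0.0332, edgeR). Gpc3, a glypican that can compete for ligand, was the remaining gene (0.49 ± 0.13, adjusted p = 0.0208, edgeR), named after its values were seen.

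The calls of Lrp2, Gas1 and Gpc3 were close to the threshold and were lost when some libraries were left out, that of Gas1 also without the filter on low counts (adjusted p = 0.0557, edgeR), while the log2 fold changes stayed at 0.52 to 0.92 for Lrp2, 0.39 to 0.53 for Gas1 and 0.44 to 0.55 for Gpc3. That of Lrp2 was lost without cochlea replicate 1 or 2 or vestibule replicate 1 or 2 (adjusted p 0.111 to 0.162, edgeR, against 0.00286 to 0.162 over all alternatives), and that of Gas1 without any library except vestibule replicate 1 (0.0682 to 0.0961, edgeR, against 0.00503 to 0.147). That of Gpc3 was lost without cochlea replicate 1 or vestibule replicate 2 or 3 (0.0522 to 0.0802, edgeR, against 0.00308 to 0.11). With the replicate number as a block, the calls of Lrp2, Gas1 and Gpc3 were all lost (adjusted p 0.112, 0.147 and 0.11, edgeR).

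The proteins between Smo and the Gli factors showed no call. Of 19 intracellular transducers, such as Sufu, which holds Gli proteins in the cytoplasm, and Kif7, a ciliary kinesin, 0 passed by edgeR's quasi-likelihood test. At an unadjusted p under 0.05 there was 1 in each direction, and their log2 fold changes lay between -0.43 and 0.85 with a median of -0.03. DESeq2 called Prkaca, a catalytic subunit of protein kinase A, in the cochlea and Gnas, the stimulatory G protein subunit, in the vestibule. The exact test of edgeR called only Gnas, and limma-voom called 0. Of 7 ciliary regulators, 0 passed by edgeR's quasi-likelihood test, beside the same shares of all genes. Among them 1 had an unadjusted p under 0.05, and their log2 fold changes ran from -0.14 to 0.70. DESeq2 and the exact test each called Inpp5e, a ciliary phosphatase, in the vestibule, and limma-voom called 0. Prkaca, Gnas and Inpp5e are named after their values were seen.

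Of 10 further genes described as targets, 8 passed the filter, 4 of these were higher in the cochlea, 1 was higher in the vestibule, and the group had a median log2 fold change of -0.94, beside 11.6% and 15.8% of all genes called and a median of 0.005. Foxf2, a forkhead factor of mesenchyme, stood at 66.6, 70.6 and 78.3 CPM in the cochlea against 6.33, 7.98 and 7.42 CPM in the vestibule (-3.43 ± 0.16 SE, adjusted p = 4.98e-06, edgeR). Mycn, a transcription factor of dividing progenitor cells, stood at 22.2, 31.1 and 27.8 against 5.70, 5.33 and 4.004 CPM (-2.56 ± 0.20, adjusted p = 3.96e-05, edgeR). Neither gene overlapped between the tissues, and both passed under all 15 alternatives.

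The other targets higher in the cochlea, named after their values were seen, were Bcl2, an inhibitor of cell death (-1.75 ± 0.14, adjusted p = 4.98e-05, edgeR), and Osr2, a zinc finger factor (-1.88 ± 0.43, adjusted p = 0.0118, edgeR). The call of Osr2 was lost without cochlea replicate 2 (adjusted p = 0.0567, edgeR, against 8.56e-05 to 0.0567 over the 14 alternatives that could test it). Foxc2, another forkhead factor, was higher in the vestibule, at 15.8, 21.3 and 17.3 CPM against 11.04, 12.0 and 9.10 CPM (0.63 ± 0.19, adjusted p = 0.0384, edgeR). That call was lost without cochlea replicate 1 or 3 or vestibule replicate 2 or 3 (adjusted p 0.072 to 0.17, edgeR, against 0.0163 to 0.17). It was also lost with the replicate number as a block (adjusted p = 0.0809, edgeR). The 2 genes below the filter were Foxf1 and Nkx3-2.

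**Figure D3:**
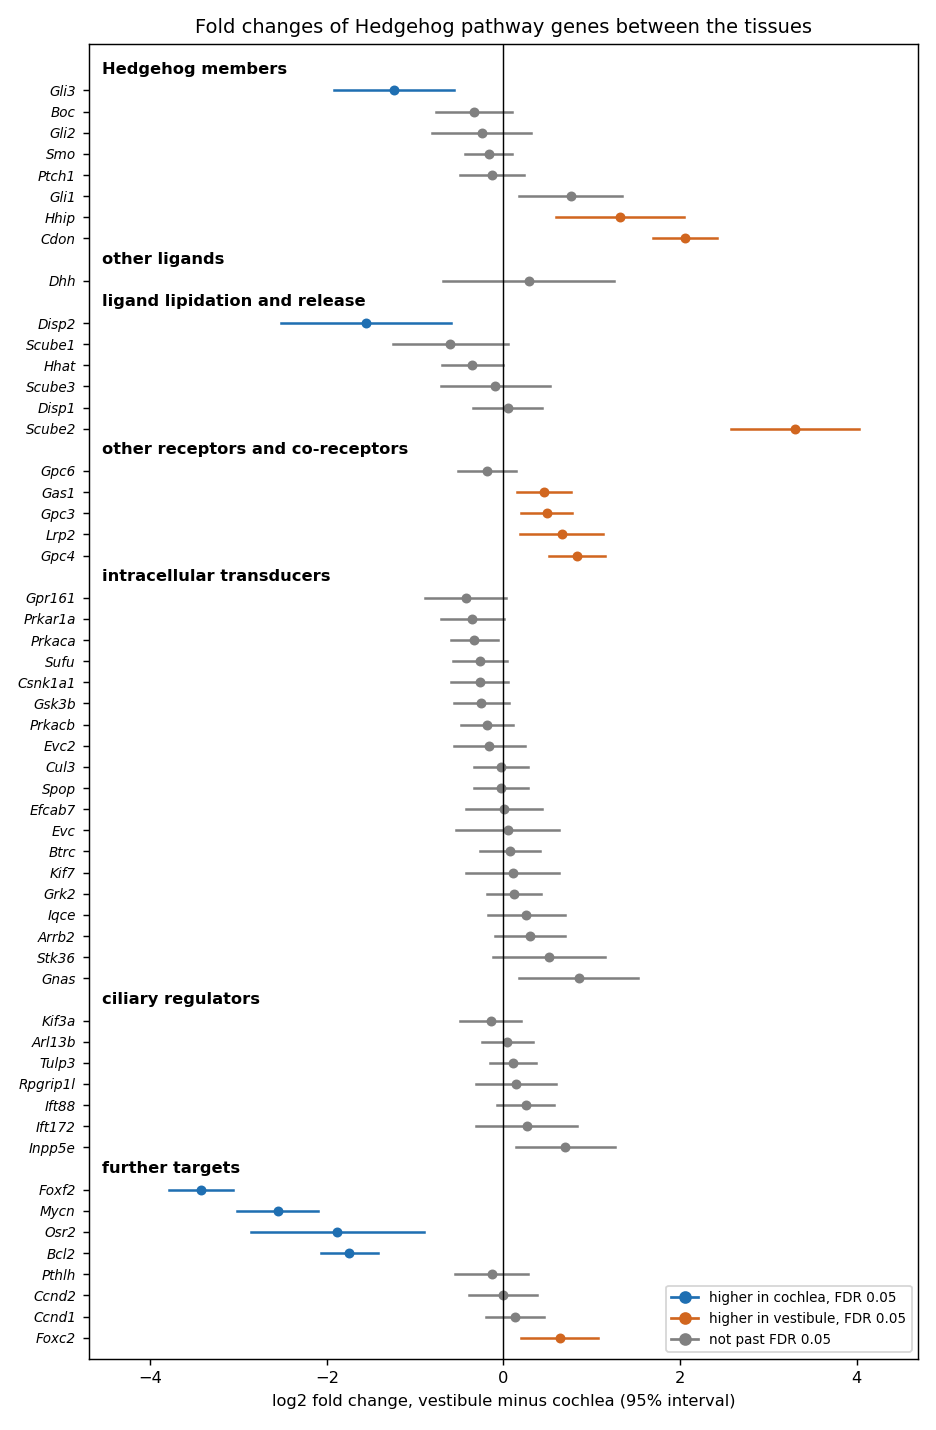
Log2 fold change (horizontal axis, vestibule minus cochlea) with its 95% interval for the 8 tested members and 46 of the 47 tested genes of the rest of the pathway, in groups by role. Blue marks genes higher in the cochlea and orange genes higher in the vestibule at an FDR of 0.05, with Foxf2 (-3.43) and Scube2 (3.30) at the ends and all 19 intracellular transducers in grey.

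Markers of other cell types differed between the tissues alongside the members. Of the hair cell markers, 5 of 8 were higher in the vestibule, with summed levels of 548.1 to 755.8 CPM in the cochlea and 997.4 to 1274 CPM in the vestibule. Of the supporting cell markers, 6 of 7 were higher in the cochlea (658.3 to 831.9 against 367.6 to 397.2 CPM). Among mesenchyme markers, 4 of 10 were higher in the vestibule and 2 in the cochlea (5278 to 5989 against 8125 to 9361 CPM in sum).

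Bone markers were higher in the vestibule for all 5 tested of 6 (61.93 to 222.0 against 458.2 to 725.4 CPM), endothelial ones for 5 of 6, with 1 higher in the cochlea (178.9 to 240.5 against 398.8 to 561.4 CPM) and macrophage ones for 6 of 6 (74.01 to 86.78 against 296.4 to 336.9 CPM). Schwann cell markers were higher in the vestibule for 3 of 8. Cartilage markers overlapped in sum (12250 to 21330 and 15680 to 20720 CPM), with 3 of the 8 tested higher in the vestibule and 1 in the cochlea. Proliferation markers also overlapped in sum (197.6 to 257.6 and 204.6 to 279.3 CPM), with 1 of 8 higher in the cochlea. Of the 8 neuron markers tested of 9, 4 were higher in the cochlea. Of the 3 skeletal muscle markers tested of 7, 0 passed by edgeR's quasi-likelihood test (1 at an unadjusted p under 0.05), by DESeq2, by limma-voom and by edgeR's exact test. Tnnc2 was at 0 counts in every library, also in cochlea replicate 3 with its 4305 counts of Acta1. Whether this 0 reflects absence or the counting was not tested. The part of these cell types in the counts of Cdon, Hhip, Gli3 and Gli1 was not tested.

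**Figure D4:**
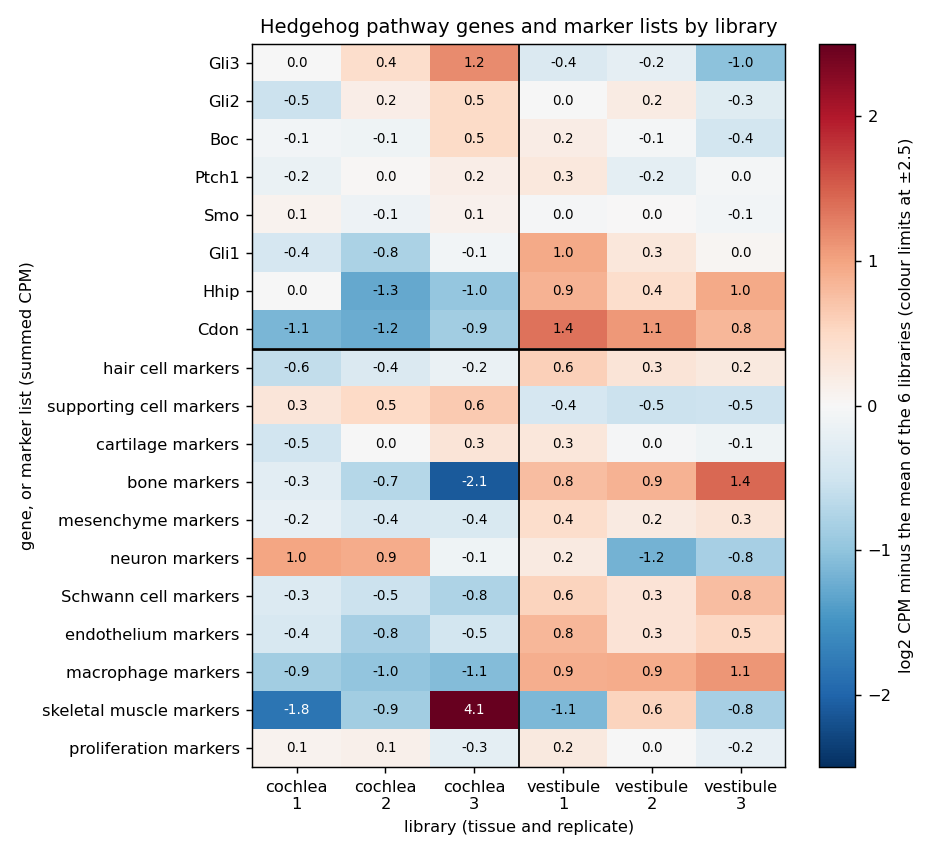
Log2 CPM minus the mean of the 6 libraries for 8 Hedgehog pathway genes (upper rows) and for the summed CPM of 11 marker lists (lower rows), with each library a column and the value printed in each cell. Cdon and Hhip are positive in all vestibular libraries, as are the hair cell, bone, mesenchyme, Schwann cell, endothelium and macrophage markers, and the skeletal muscle markers stand out in cochlea replicate 3.

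Likeness between genes was described by the root mean square (RMS) difference of log2 CPM over the 6 libraries, each gene centred on its mean. All genes share these libraries, and no test was made. Of 14722 other genes, those closest to Cdon were Scnn1g (RMS 0.082) and Tbxas1 (0.093), and those closest to Hhip were Esam (0.165) and Sytl3 (0.166). The closest to Gli3 were Rnf165 (RMS 0.113) and Gpr179 (0.115), and those closest to Gli1 were Lacc1 (0.064) and Trim68 (0.084). None of these nearest genes is a member.

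For the members that passed in neither direction, the closest in RMS were Atxn1l (0.069) and Unc5c (0.071) to Ptch1, Usp4 (0.026) and Pum2 (0.027) to Smo, Plxna1 (0.063) and Prdm11 (0.070) to Boc, and Il4i1 (0.071) and Wiz (0.088) to Gli2. Among the members themselves, Boc ranked 651 in likeness to Gli2 (RMS 0.265) and 684 to Gli3 (0.491), the best ranks of any pair. Hhip ranked 1117 in likeness to Cdon (RMS 0.569) and Cdon 1330 to Hhip, and the member closest to Gli1 was Ptch1 at rank 6236.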

How the data were processed

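RNA-seq of 3 cochlear and 3 vestibular libraries was analysed. The authors aligned reads to GRCm38 and deposited raw read counts per Ensembl gene, together with a matrix of log2 RPKM for 14722 genes, which is scaled by library size without TMM. The submitters' processing notes name TopHat2 2.1.0, SAMtools 0.1.18, HTSeq 0.5.4p5 and edgeR 3.4.2. Summary lines, which hold 18.5% to 20.6% of all listed counts, were left out of library sizes and tests. Positions and symbols are from GENCODE vM21, which may differ from the annotation used for counting. No sequencing batch is given in the labels.

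The counts of all genes that reached 1 CPM in 3 libraries or more were fitted with edgeR 4.0.16 in R 4.3.3 (TMM, quasi-likelihood test, two-sided, Benjamini-Hochberg over all genes tested, FDR 0.05, no block for replicate number). The script was tested on simulated data. DESeq2 1.42.0, limma-voom (limma 3.58.1), edgeR's exact test, other scalings and filters, leaving out each library, and the replicate number as a block were tried as alternatives. Intervals of summed counts are exact Poisson intervals (scipy 1.17.1), and figures were drawn with matplotlib 3.10.9 in Python 3.11.15. The members and gene lists were chosen with earlier results of these data known. Named were all 9 members, from each further group the 2 genes with the largest change past the threshold in each direction, and, whatever their values, Ihh, Dhh, Gas1 and another gene that is not reported here. Likeness named the 2 genes with the smallest RMS difference, and marker lists were given as counts and sums.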

Additional observations from a re-analysis of the deposited data

How the results depend on the processing

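Under 15 alternatives, Cdon kept its direction and call in all, Smo, Gli2 and Boc passed in none, and Gli3 and Hhip each lost their call in 1. Gli1 passed in 6, and Ptch1 turned to 0.0038 (log2) without vestibule replicate 2 (adjusted p = 0.992, edgeR), in a range of -0.23 to 0.0038 over the libraries left out. For the named genes of the rest of the pathway, these values were added after seeing the data, and of the genes so run Dhh alone reversed, with a range of -0.0375 (without cochlea replicate 3) to 1.01 (without cochlea replicate 1). Without TMM the log2 fold changes of all genes had a median of 0.126, 1249 genes were higher in the cochlea and 2754 in the vestibule, and no member changed its call. Shh could be fitted only without the filter, at -0.47 (log2, adjusted p = 0.822, edgeR).

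Leaving out 1 library in turn gave 1 to 3 members higher in the vestibule, 1 without cochlea replicate 2. It gave 3 to 6 other pathway genes higher in the cochlea and 2 to 6 in the vestibule. All genes ranged from 925 (without vestibule replicate 2) to 1863 in the cochlea and from 1342 (without vestibule replicate 2) to 2694 in the vestibule.

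Deviations of same-numbered libraries from their tissue means correlated at -0.175, -0.26 and -0.475, and no library correlated best with its own number (cochlea 3 with vestibule 2 at 0.406). With 3 libraries per tissue these correlations depend on each other and cannot exclude that the numbers pair the libraries. With the replicate number as a block, 0 members were higher in the cochlea by edgeR's quasi-likelihood test, with Gli3 at -1.18 (adjusted p = 0.0643) and the 1 at an unadjusted p under 0.05, against 1 by DESeq2, limma-voom and edgeR's exact test without the block. Other pathway genes higher in the vestibule were 2 (Scube2 and Gpc4), as Lrp2, Gas1, Gpc3 and Foxc2 lost their calls (adjusted p 0.0809 to 0.147), and all genes higher in the cochlea 1009.

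With gene lengths from GENCODE vM21, 7 of 16 levels moved by more than their SD, by up to 1.72 (log2). Genes near the limit of 3 counts, such as Shh, cannot be compared at this depth.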
